A study of Homo sapiens with 9 samples.

Results

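A set of 9 genes of glucose uptake and phosphorylation were followed in Hep3B cells, a human liver cancer line, by RNA-seq. They were picked by gene symbol in the table of counts: the glucose transporters SLC2A1, SLC2A2, SLC2A3 and SLC2A9, the glucose-phosphorylating kinases HK1, HK2, HKDC1 and ADPGK, and GCKR, a regulator of glucose phosphorylation in the liver. All 9 were found among the 60683 genes listed, and all 9 were among the 22672 genes tested. The 3 groups, each of 3 biological replicates of this single line, were cells given vehicle (DMSO) at 20% O2 (normoxia), vehicle at 1% O2 (hypoxia), and 32-134D, a compound developed as a HIF inhibitor, at 1% O2, all for 24 hours. No library came from cells given 32-134D at 20% O2, and the labels state no dose of the compound. For the medium, the labels name DMEM/F12 whereas the study's methods name high-glucose DMEM, so the glucose supply is not settled.

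Glucose enters cells down its gradient through the facilitative transporters of the SLC2A (GLUT) family and is trapped inside when a hexokinase phosphorylates it to glucose 6-phosphate. Normal hepatocytes rely on the low-affinity transporter GLUT2, encoded by SLC2A2, and restrain glucose phosphorylation through GCKR when glucose is scarce. Many liver cancers instead express GLUT1, encoded by SLC2A1, and hexokinase 2. Hypoxia-inducible factors (HIFs) are transcription factors that accumulate when oxygen falls, and SLC2A1 and HK2 are textbook targets of HIF-1, which binds hypoxia response elements with the core ACGTG or GCGTG.

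The libraries held between 6013980 and 40549699 counts on genes. Of the 9 hepatocyte markers examined, all were detected, with a summed level of 11740 to 19770 CPM (counts-per-million, scaled between libraries by the TMM method). The endothelial markers summed to at most 1.28 CPM, and VWF had no count. PTPRC, the defining leukocyte gene, reached at most 3 counts, and CD3E had none. LYZ made up most of the leukocyte sum of 7.71 to 30.3 CPM, and the fibroblast markers summed to 6.88 to 23.7 CPM. Replicate 3 of 32-134D stood apart from the other two. Its score on the second principal component was -49.1, against -1.88 and -3.50, and its hepatocyte marker sum was 11740 CPM, against at least 17800 CPM in the others. Values without that library are therefore added where it ends a call, and for some genes where it lies apart from the other two. It also lay apart for TXNIP, ARRDC4, MLXIPL and PGM1, described below, whose calls stayed the same without it. In such bulk samples, fewer cells of a type and less RNA per cell cannot be told apart.

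The effect of hypoxia was read from vehicle at 1% O2 against vehicle at 20% O2. SLC2A1, SLC2A3, HK1 and HK2 rose, SLC2A2 and GCKR fell, and HKDC1, ADPGK and SLC2A9 were not called. A call required an FDR (the Benjamini-Hochberg adjusted p of edgeR's quasi-likelihood test, over all genes tested) below 0.05 and a fold change above 1.5. Thus 4 of the 9 genes were called higher and 2 lower, where 19.5% of all genes tested were called higher and 20.3% lower. The 9 genes were chosen with earlier results of these data known. Their counts and medians beside all genes, here and below, are therefore a description. HK1 met the filter on summed counts only through vehicle at 1% O2, where it was high. Its being tested thus depended on the group in which it was called, and its calls are a description. The median log2 fold change was 0.53 over the 9 genes and 0.0010 over all genes tested.

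The effect of the compound was read from 32-134D against vehicle, both at 1% O2. SLC2A1, SLC2A3, HK1 and HK2 fell, and SLC2A2 rose. Thus 4 of the 9 genes were called lower and 1 higher, where 13.7% of all genes tested were called lower and 16.2% higher. HK1 is among the 4, and its call is a description here too, since it met the filter only through vehicle at 1% O2. The median log2 fold change was -0.29 over the 9 genes and -0.012 over all genes tested. Both comparisons share the vehicle libraries at 1% O2, so that a deviation in those libraries would move a gene in opposite directions in them.

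A further comparison set 32-134D at 1% O2 against vehicle at 20% O2, and asked what difference from normoxia was left with the compound. SLC2A1 and HK2 were higher, 2 of 9 genes, where 3.0% of all genes tested were called higher. Of the 9 genes, 0 were called lower by edgeR and 0 by DESeq2, where edgeR called 0.516% of all genes lower, and 1 gene, GCKR, was lower at an unadjusted p under 0.05. The median log2 fold change was -0.48 over the 9 genes and -0.0028 over all genes tested.

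**Figure D1:**
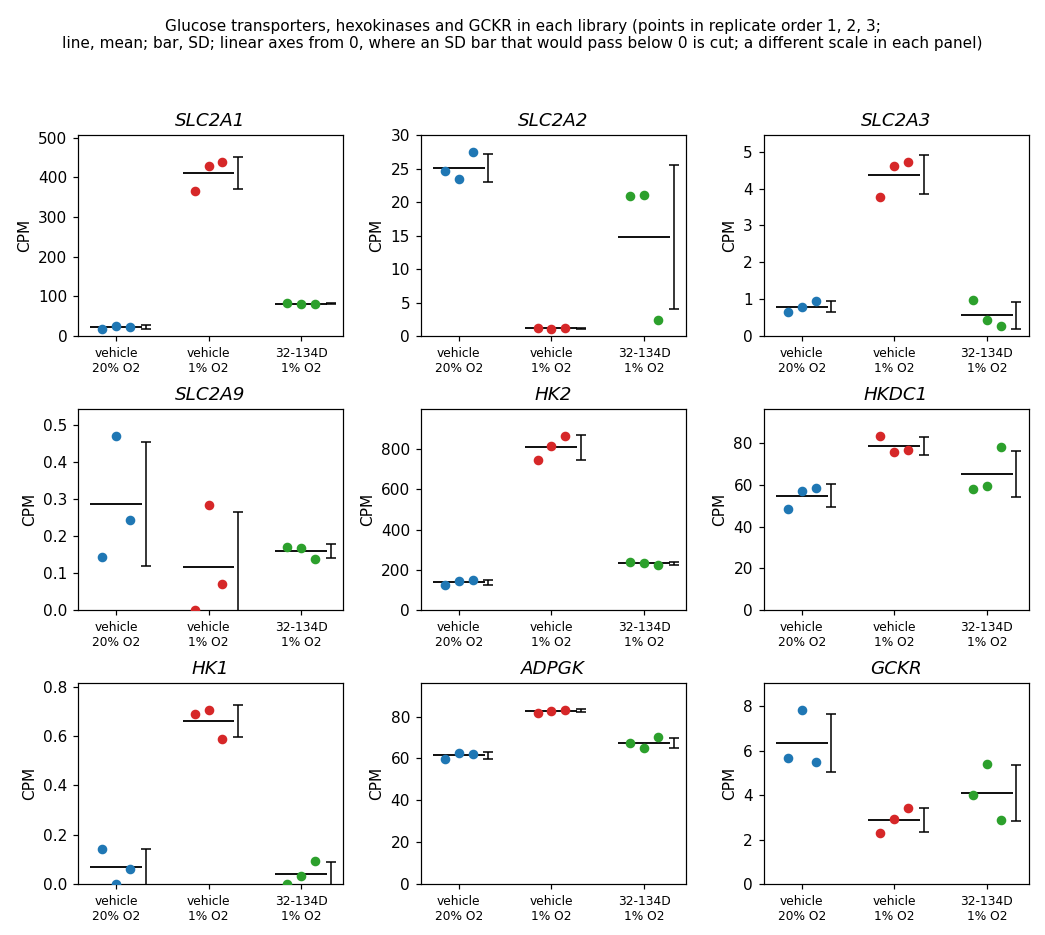
Level of each of the 9 genes in CPM (vertical axis, linear from 0 with a scale of its own in each panel) in the 3 groups (horizontal axis). Points are single libraries in the order of replicates 1, 2 and 3, lines are means and bars are SDs. SLC2A1, SLC2A3, HK1 and HK2 were highest in all 3 libraries of vehicle at 1% O2, and SLC2A2 was near its hypoxic level in replicate 3 of 32-134D.

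SLC2A1 (ENSG00000117394) encodes GLUT1, the high-affinity basal glucose transporter. On GRCh38 it spans chr1:42925375-42959176 on the minus strand. Its levels in replicates 1, 2 and 3 were 17.2, 25.9 and 23.5 CPM with vehicle at 20% O2. They were 365, 429 and 440 CPM with vehicle at 1% O2, and 83.3, 80.6 and 81.0 CPM with 32-134D. The 3 groups did not overlap, and the compound group lay between the vehicle groups with the smallest spread. Hypoxia raised SLC2A1 18.7-fold (log2 fold change 4.23, SE 0.13, FDR = 4.57e-12 by edgeR's quasi-likelihood test). With the compound it fell by 2.33 on the log2 scale (SE 0.11, FDR = 1.58e-09 in the same edgeR fit). It stayed 3.72-fold above normoxia (log2 fold change 1.90, SE 0.12, FDR = 2.36e-07 in the same edgeR fit). Leaving out each library in turn gave 4.02 to 4.32 for hypoxia and -2.41 to -2.21 for the compound.

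SLC2A2 (ENSG00000163581, chr3:170996348-171026750, minus strand) encodes GLUT2, the transporter through which hepatocytes both take up and release glucose. It moved the opposite way to SLC2A1. Its levels were 24.6, 23.4 and 27.5 CPM with vehicle at 20% O2 and 1.25, 1.08 and 1.21 CPM with vehicle at 1% O2. With 32-134D they were 21.0, 21.0 and 2.33 CPM, from 740, 625 and 51 counts. Replicates 1 and 2 thus lay just below the normoxic libraries, and replicate 3, at 9.01-fold less than their mean, lay just above the hypoxic ones. SLC2A2 fell 21.2-fold in hypoxia (log2 fold change -4.41, SE 0.57, FDR = 1.06e-05 by edgeR's quasi-likelihood test). Replicate 3 of 32-134D is not in that comparison but shares its fit and estimate of spread. Without it, the log2 fold change in hypoxia was -4.42 (FDR = 1.41e-21 by edgeR). SLC2A2 rose with the compound (3.65, SE 0.57, FDR = 8.26e-05 by edgeR), and the increase was 4.13 without replicate 3. Against normoxia the log2 fold change was -0.75 (95% interval -1.71 to 0.20, FDR = 0.327 by edgeR), and -0.28 without replicate 3 (FDR = 0.0615 by edgeR).

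The spread of SLC2A2 within the compound group was not shared by every gene. In replicate 3, relative to the mean of replicates 1 and 2, SLC2A1 was at 0.988, HK2 at 0.953 and ADPGK at 1.06 times their level, whereas SLC2A3 was at 0.391, GCKR at 0.614 and HKDC1 at 1.33 times. The fibroblast marker sum of this library, 23.7 CPM, was the highest of the 9, and its hepatocyte marker sum was the lowest. The single markers did not all follow the sums. COL1A1 (10.4 CPM against 5.36 and 5.42) and LUM were higher than in replicates 1 and 2, but COL1A2 (0.412 against 1.28 and 0.976) and DCN were lower. HNF4A was higher (380 CPM against 349 and 353), while the other hepatocyte markers were lower. The part of either sum in the SLC2A2 level was not tested.

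SLC2A3 (ENSG00000059804, chr12:7919230-7936275, minus strand) encodes GLUT3, a high-affinity transporter best known from neurons. It was a minor transcript, at 0.645, 0.785 and 0.943 CPM with vehicle at 20% O2. It reached 3.76, 4.62 and 4.74 CPM with vehicle at 1% O2, and was at 0.964, 0.438 and 0.274 CPM with 32-134D. The hypoxic libraries lay above all others, while the normoxic and compound libraries overlapped. SLC2A3 rose in hypoxia (log2 fold change 2.39, SE 0.33, FDR = 1.81e-05 by edgeR's quasi-likelihood test). It fell by 2.87 on the log2 scale with the compound (SE 0.31, FDR = 2.67e-06 in the same edgeR fit). Without replicate 1 of that group the log2 fold change was -3.50. Against normoxia the log2 fold change was -0.48 (95% interval -1.32 to 0.37), and -1.16 without replicate 1 of 32-134D (FDR = 0.0684 by edgeR). The compound libraries held only 34, 13 and 6 counts of this gene.

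These counts depend on how reads shared with a near copy were assigned. Of the 31-base words of the longest SLC2A3 transcript, 39.3% also occur in other genes, and 33.0% in SLC2A14 alone. SLC2A14 encodes GLUT14, lies 28081 bases away on chromosome 12, and took 88.8% to 93.0% of the raw counts of the pair, summed within each group. It changed in the same directions, from 9.23 CPM with vehicle at 20% O2 to 33.8 CPM at 1% O2 and 7.95 CPM with 32-134D. Its log2 fold change was 1.90 in hypoxia (SE 0.15, FDR = 7.33e-08 by edgeR) and -2.08 with the compound (SE 0.14, FDR = 4.83e-08 by edgeR). The sum of both genes was 10.0 ± 0.849, 38.1 ± 1.92 and 8.51 ± 2.08 CPM in the 3 groups (SD, n = 3). It does not depend on how counted reads were split between the genes. Shared reads that were dropped, if any, are missing from it.

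SLC2A9 (ENSG00000109667, chr4:9771153-10054936, minus strand) encodes GLUT9, which mainly carries urate. It was close to the limit of detection. It had 2, 3 and 8 counts with vehicle at 20% O2, 0, 6 and 2 with vehicle at 1% O2, and 6, 5 and 3 with 32-134D, where 3 counts corresponded to 0.0795 to 0.471 CPM depending on the library. The groups overlapped, and no change was detectable at this depth. The ratio of normoxic to hypoxic vehicle counts, scaled for depth, was 2.68, with a 95% interval of 1.03 to 7.47 that covers counting error only. The log2 fold change of -1.32 in hypoxia had an FDR of 0.228 by edgeR. It became -2.85 with an FDR of 0.0281 without replicate 2 of vehicle at 1% O2, which held 6 of the 8 hypoxic counts, and -0.59 with an FDR of 0.542 without replicate 1, which held none.

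Per kilobase of exon, the largest of these 4 transporter transcripts differed between the groups. Levels are given as RPKM, CPM per kilobase of merged exons, and shares as percent of the summed RPKM of the 4 transporters. Other SLC2A genes are left out of this sum, so the shares are not those of all glucose transporter transcripts. SLC2A6, for example, was at 58.2 CPM with vehicle at 20% O2 and 32.0 CPM at 1% O2. Both values were above those of SLC2A2, 25.15 and 1.18 CPM. SLC2A1 made up 33.2% to 43.8% with vehicle at 20% O2, where SLC2A2 was the larger transcript at 60.4% ± 5.51 (SD, n = 3). With vehicle at 1% O2, SLC2A1 made up 98.8% in every library and SLC2A2 0.396% ± 0.0629 (SD, n = 3). With 32-134D, SLC2A1 made up 73.6%, 73.2% and 95.8% in replicates 1, 2 and 3, and SLC2A2 25.6%, 26.4% and 3.82%. The 3 groups did not overlap in the SLC2A1 share, which averaged 38.2%, 98.8% and 80.9%, or 73.4% with 32-134D without replicate 3. The exact two-sided permutation p was 0.1 for each pair of groups, the smallest that 3 against 3 libraries allow. The summed level was 12.2 ± 1.14, 88.1 ± 8.69 and 21.7 ± 3.34 RPKM (SD, n = 3).

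**Figure D2:**
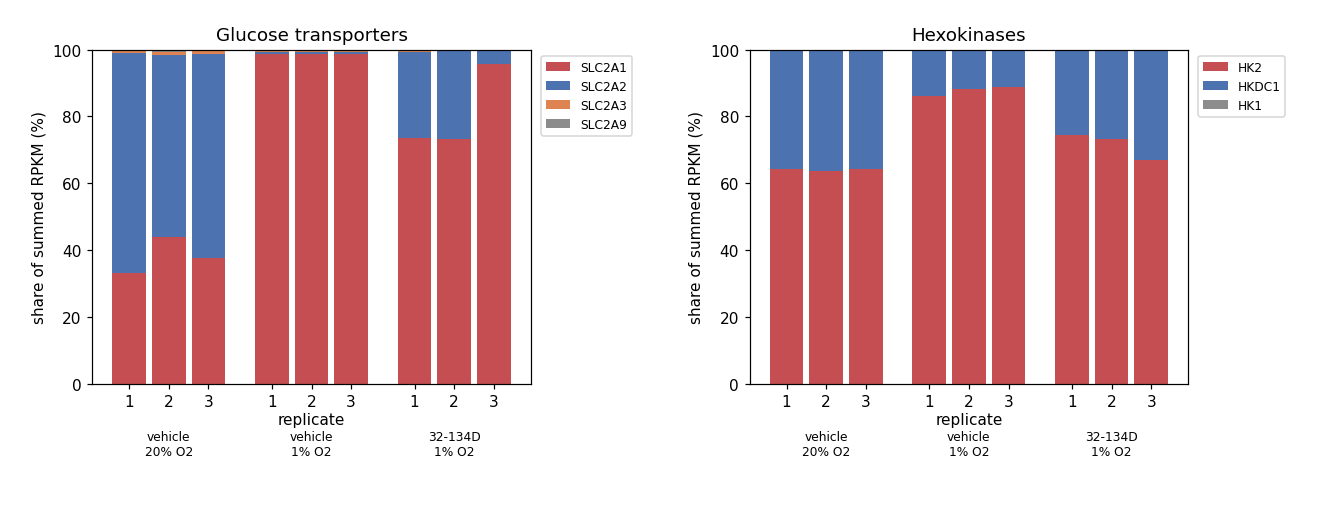
Share of each gene (percent of summed RPKM, vertical axis) among the 4 glucose transporters (left) and the 3 hexokinases (right) in each library (horizontal axis, replicates 1 to 3 of each group). SLC2A1 made up 98.8% of the sum of these 4 transporters, which leaves out other SLC2A genes, with vehicle at 1% O2. HK2 made up 64%, 87.7% and 71.5% of hexokinase transcripts on average in the 3 groups.

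HK2 (ENSG00000159399, chr2:74833981-74893359, plus strand) encodes hexokinase 2, the high-affinity isoform of muscle, fat and many tumors, which docks on mitochondria. RefSeq gives it a pair of transcription start sites. In the 250 bases before each start, the cores ACGTG and GCGTG were searched on both strands, since HK2 is a known HIF-1 target and changed in both comparisons. Each core is shown in capitals within a stretch of 30 bases of the plus strand (RefSeq, GRCh38.p14). On the opposite strand the cores read CACGT and CACGC, and CACGTG holds a core on each strand.
HK2 chr2:74833885-74833914, before the upstream start: tagccacggaccaCACGTcccatctcaggc
HK2 chr2:74834063-74834092, before the upstream start: agccaatggGCGTGcgCACGTcactgatcc
HK2 chr2:74834964-74834993, before the downstream start: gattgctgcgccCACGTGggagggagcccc
HK2 chr2:74835009-74835038, before the downstream start: ttccggcgagagCACGTGgagagaatcgtg
HK2 chr2:74835050-74835079, before the downstream start: ctgctccgctgccGCGTGgggccgccgggg
HK2 chr2:74835087-74835116, before the downstream start: gcgctcgcggaccGCGTGtaggagacgagc

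The upstream window of HK2 held 3 cores and the downstream window 6, counting each strand. Such cores are common, as 43.2% of the 35116 RefSeq windows of this length held at least 1. Windows were at hand for 8 of the 9 genes, 16 windows in all, and 5 of them, of SLC2A9, HK1, HK2 and ADPGK, held a core. The single core of ADPGK is shown as well, because that gene changed by less than the fold threshold.
ADPGK chr15:72783849-72783878, minus strand: gcctgggactgagGCGTGgggtcccccctc
The windows of SLC2A1, SLC2A2, HKDC1 and GCKR did not hold these letters. A match is a description of the sequence and was not tested as a binding site.

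HK2 was the most abundant of the 9 genes per kilobase in every group. Its levels were 124, 142 and 150 CPM with vehicle at 20% O2, 746, 814 and 868 CPM with vehicle at 1% O2, and 239, 234 and 225 CPM with 32-134D. The 3 groups did not overlap, as for SLC2A1. HK2 rose 5.84-fold in hypoxia (log2 fold change 2.54, SE 0.087, FDR = 1.63e-11 by edgeR's quasi-likelihood test). It fell by 1.80 on the log2 scale with the compound (SE 0.084, FDR = 1.19e-09 in the same edgeR fit). A 1.68-fold excess over normoxia was left (log2 fold change 0.74, SE 0.083, FDR = 4.83e-05 in the same edgeR fit). The processed copy HK2P1 shares 16.3% of the 31-base words of HK2 and took at most 0.320% of the raw counts of the pair, summed within each group.

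HKDC1 (ENSG00000156510, chr10:69220303-69267559, plus strand) encodes hexokinase domain-containing 1, which lies 2424 bases before HK1. It was the runner-up among hexokinases and varied little. Its levels were 48.4, 57.3 and 58.5 CPM with vehicle at 20% O2, 83.7, 75.8 and 76.8 CPM with vehicle at 1% O2, and 57.9, 59.6 and 78.2 CPM with 32-134D. The vehicle groups did not overlap, and replicate 3 of 32-134D lay among the hypoxic libraries. In hypoxia HKDC1 passed the FDR but not the fold threshold, at 1.44-fold (log2 fold change 0.53, SE 0.11, FDR = 0.00101 by edgeR). With the compound the log2 fold change was -0.28 (95% interval -0.51 to -0.041, FDR = 0.0512 by edgeR), and -0.42 without replicate 3 (FDR = 6.76e-05 by edgeR). Against normoxia it was 0.25 (95% interval 0.010 to 0.49, FDR = 0.184 by edgeR).

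HK1 (ENSG00000156515, chr10:69269984-69401884, plus strand), the hexokinase of most other tissues, was nearly silent in these cells. It had 2, 0 and 2 counts with vehicle at 20% O2, 26, 15 and 17 with vehicle at 1% O2, and 0, 1 and 2 with 32-134D. Every hypoxic vehicle library was thus above every other library, and the normoxic and compound libraries were at or under 3 counts. Scaled for depth, the hypoxic vehicle counts were 8.78 times the normoxic ones (95% interval 3.25 to 33.3) and 19.1 times those with the compound (6.22 to 95.3), both for counting error only. HK1 passed the filter on summed counts only through its 58 counts in the hypoxic vehicle group, so that its FDRs of 0.00122 in hypoxia and 0.000122 with the compound by edgeR are given as a description. The fitted log2 fold change with the compound, -4.05, ran from -5.03 without replicate 3 to -3.33 without replicate 1 of the 32-134D group. Even at 1% O2 its level was 0.105 RPKM, against 133.5 RPKM for HK2.

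ADPGK (ENSG00000159322, chr15:72751369-72785846, minus strand) encodes a kinase that phosphorylates glucose with ADP in place of ATP. Its levels were 59.5, 62.5 and 62.3 CPM with vehicle at 20% O2, 81.9, 82.9 and 83.4 CPM with vehicle at 1% O2, and 67.3, 65.2 and 70.1 CPM with 32-134D. The groups did not overlap, but the differences were small. The log2 fold change was 0.43 in hypoxia (SE 0.068, FDR = 7.12e-05 by edgeR), a 1.35-fold difference, and -0.29 with the compound (SE 0.066, FDR = 0.00199 by edgeR), so that neither passed the fold threshold. Its exons share 540 bases with those of ADPGK-AS1 on the opposite strand, which had at most 2 counts. Without a stated strand setting, reads of these genes cannot be told apart.

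GCKR (ENSG00000084734, chr2:27496842-27523684, plus strand) encodes a regulatory protein that restrains glucose phosphorylation in hepatocytes. It had 5.67, 7.85 and 5.51 CPM with vehicle at 20% O2, 2.31, 2.92 and 3.42 CPM with vehicle at 1% O2, and 4.0, 5.39 and 2.88 CPM with 32-134D. The vehicle groups did not overlap, and the compound libraries spread over the gap between them and into the hypoxic range. GCKR fell 2.14-fold in hypoxia (log2 fold change -1.09, SE 0.24, FDR = 0.00116 by edgeR). With the compound the log2 fold change was 0.52 (95% interval 0.032 to 1.02, FDR = 0.0753 by edgeR). It passed both thresholds without replicate 3 of 32-134D (0.71, FDR = 0.00163 by edgeR) and without replicate 3 of vehicle at 1% O2 (0.74, FDR = 0.0381 by edgeR). It was smaller without replicate 2 of 32-134D (0.28, FDR = 0.364 by edgeR) and without replicate 1 of vehicle at 1% O2 (0.37, FDR = 0.273 by edgeR). The log2 fold change against normoxia was -0.57 (FDR = 0.14 by edgeR), and -0.82 without replicate 2 of 32-134D (FDR = 0.0457 by edgeR). HK3, a hexokinase of blood cells, had at most 1 count in any library and was not tested.

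**Figure D3:**
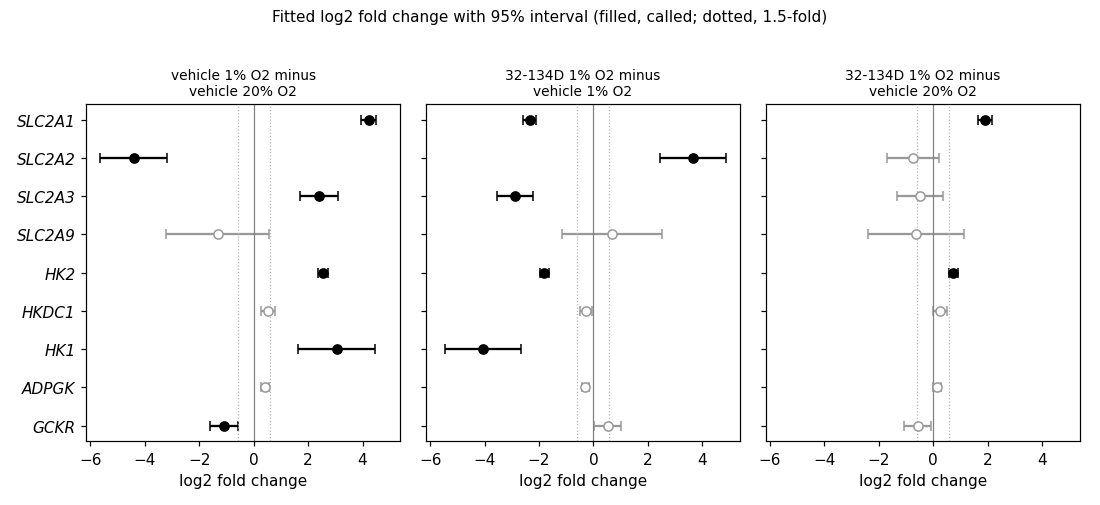
Fitted log2 fold change (horizontal axis) of each gene (vertical axis) in the 3 comparisons, with 95% intervals. Filled points passed an FDR of 0.05 and a fold change of 1.5, which the dotted lines mark, and HK1 is left out of the right panel because both groups were at or under 3 counts per library. SLC2A1 and HK2 are filled in all 3 panels.

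HK1, HK2 and HKDC1 summed to 35.7 ± 3.47 RPKM with vehicle at 20% O2, 152.1 ± 9.26 RPKM with vehicle at 1% O2 and 53.6 ± 1.60 RPKM with 32-134D (SD, n = 3). HK2 made up 64.2%, 63.6% and 64.2% of this sum in the normoxic libraries, 86.2%, 88.2% and 88.8% in the hypoxic vehicle libraries, and 74.3%, 73.3% and 66.9% with 32-134D. HKDC1 made up nearly all of the rest. The groups did not overlap, and the exact two-sided permutation p for the HK2 share was 0.1 for each pair of groups, the smallest that 3 against 3 libraries allow.

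The order of the levels per kilobase also differed between groups. With vehicle at 20% O2 it was HK2 (22.9 RPKM), HKDC1 (12.9), ADPGK (10.4), SLC2A2 (7.36), SLC2A1 (4.70), GCKR (2.02) and SLC2A3 (0.128), each apart from the next, followed by SLC2A9 and HK1, which overlapped. With vehicle at 1% O2, SLC2A1 (87.0 RPKM) came directly after HK2 (133.5), ahead of HKDC1 (18.5) and ADPGK (13.95). GCKR (0.917) and SLC2A3 (0.710) overlapped, and SLC2A2 (0.345) came after both. With 32-134D, HK2 (38.3 RPKM) was followed by SLC2A1 (17.3) and HKDC1 (15.3), whose libraries overlapped, then by ADPGK (11.4), and by SLC2A2 (4.33) and GCKR (1.3), which overlapped too.

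Genes with the most similar profile were sought by the root mean square difference of log2 CPM over the 9 libraries, after each gene was centered on its own mean, among 11141 tested genes with a mean of at least 5 CPM. As a description, the genes nearest to HK2 were EGLN1 (0.0478), which encodes an oxygen-sensing HIF prolyl hydroxylase, STBD1 (0.0721), whose product binds glycogen, and VEGFA (0.0722), the angiogenic factor. Those nearest to SLC2A1 were PDK1 (0.189), TXNIP (0.210) and DDIT4 (0.220). PDK1 encodes a kinase that restrains entry of pyruvate into mitochondria, and DDIT4 an inhibitor of mTORC1 signaling. The nearest to SLC2A2 were the prolactin receptor gene PRLR (0.273), ROBO2 (0.410) and PERCC1 (0.438). PRLR was at 34.2, 35.1 and 4.57 CPM in replicates 1, 2 and 3 of 32-134D, and ROBO2 at 11.03, 11.7 and 1.69 CPM. Both were picked for their likeness to SLC2A2 over libraries that include replicate 3, so their low level there follows from the choice. For HKDC1 the nearest was ARHGEF25 (0.0502), for ADPGK SMARCA5 (0.0291), for GCKR SERPINA5 (0.161) and for SLC2A3 FLVCR2 (0.371). These values share the same libraries and their depth.

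A list of 42 other genes of the pathway, also chosen with earlier results of these data known, was examined alongside, of which 35 were tested. In hypoxia 11 rose and 10 fell, with a median log2 fold change of -0.014. With the compound 9 rose and 10 fell, with a median of -0.021. Of all genes tested, 19.5% were called higher and 20.3% lower in hypoxia and 16.2% higher and 13.7% lower with the compound. Against normoxia 2 were higher and 1 was lower with the compound, beside 3.0% and 0.516% of all genes. The genes named here are those with the largest changes in hypoxia in each group of the list, besides SLC2A14, TXNIP and G6PC.

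Genes that govern transporter traffic and glucose sensing held the largest changes. TXNIP, whose product draws GLUT1 and GLUT4 off the cell surface and is itself induced by glucose, was at 36.9, 36.4 and 40.2 CPM with vehicle at 20% O2. It was at 704, 791 and 824 CPM with vehicle at 1% O2, and at 152.6, 154 and 107.7 CPM with 32-134D. Its 3 groups did not overlap, and it kept the order seen for SLC2A1. The log2 fold change of TXNIP was 4.35 in hypoxia (SE 0.13, FDR = 5.69e-12 by edgeR), -2.48 with the compound and 1.86 against normoxia. ARRDC4, an arrestin related to TXNIP, went from 2.52 CPM to 74.5 CPM in hypoxia (log2 fold change 4.89, SE 0.18) and was at 14.3 CPM with 32-134D, still 2.52 above normoxia on the log2 scale (FDR = 9.26e-07 by edgeR). MLXIPL, which encodes the glucose-responsive transcription factor ChREBP, fell by 1.69 in hypoxia and rose by 1.14 with the compound on the log2 scale. TBC1D4, a regulator of GLUT4 traffic, fell by 1.64 and rose by 1.37. Of the 10 genes in this group, 3 rose and 5 fell in hypoxia, and 3 rose and 3 fell with the compound, beside shares over all genes of 19.5% and 20.3%, and of 16.2% and 13.7%.

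Among 8 other SLC2A genes tested, 1 rose and 2 fell in hypoxia, beside shares over all genes of 19.5% and 20.3%. With the compound 3 rose and 1 fell (16.2% and 13.7% over all genes), but SLC2A12 and SLC2A13 were no longer called higher without replicate 3 of 32-134D (log2 fold changes 0.32 and 0.57), nor was SLC2A12 without replicate 1 or replicate 2 of vehicle at 1% O2 (FDR = 0.0946 and 0.0933 by edgeR) or with only the 2 groups fitted (FDR = 0.0523 by edgeR). The gene that rose in hypoxia was SLC2A14, described above. SLC2A4, encoding the insulin-responsive transporter GLUT4, fell from 8.97 to 3.05 CPM in hypoxia (log2 fold change -1.53, SE 0.16) and rose to 6.60 CPM with the compound (1.11, SE 0.16). SLC2A6 fell from 58.2 to 32.0 CPM (-0.86, SE 0.084), and its log2 fold change with the compound, 0.55, did not pass the fold threshold, which it passed at 0.61 with only the 2 groups fitted and at 0.59 to 0.67 without replicate 1 of vehicle at 20% O2, replicate 3 of vehicle at 1% O2 or replicate 1 of 32-134D. Of 3 sodium-coupled transporter genes tested, SLC5A9 fell by 2.54 and SLC5A10 rose by 1.70 on the log2 scale in hypoxia, and SLC5A9 rose by 1.66 with the compound. SLC5A10 was barely expressed, with 7, 2 and 12 counts with vehicle at 20% O2 and 41, 17 and 57 with vehicle at 1% O2. SLC5A9 was at 6.81 and 6.77 CPM in replicates 1 and 2 of 32-134D but at 1.37 CPM in replicate 3, below the 1.42 to 1.72 CPM of the hypoxic vehicle libraries, and leaving out replicate 3 gave 2.07 on the log2 scale.

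The enzymes that use glucose 6-phosphate were divided. GPI, which converts it to fructose 6-phosphate in glycolysis, went from 221.5 to 718 CPM in hypoxia (log2 fold change 1.70, SE 0.084, FDR = 6.14e-10 by edgeR) and was at 223.5 CPM with the compound (-1.68, SE 0.084, FDR = 2.33e-09 by edgeR). Its log2 fold change against normoxia was 0.014. PGM1, which links glucose 6-phosphate to glycogen, had log2 fold changes of 1.95 and -1.99 in these comparisons. H6PD, the hexose 6-phosphate dehydrogenase of the endoplasmic reticulum, fell by 1.67 in hypoxia and rose by 1.38 with the compound. G6PC, the glucose 6-phosphatase of gluconeogenesis, rose in hypoxia and fell with the compound but was barely expressed. It had 1, 0 and 2 counts with vehicle at 20% O2, 20, 13 and 16 with vehicle at 1% O2, and 3, 3 and 2 with 32-134D, and the ratio of hypoxic to normoxic vehicle counts, scaled for depth, was 9.89 (95% interval 3.19 to 49.6, counting error only). Of 8 genes tested in this group, 4 rose and 1 fell in hypoxia, and 1 rose and 4 fell with the compound, beside 19.5% and 20.3% of all genes in hypoxia and 16.2% and 13.7% with the compound.

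Of the other hexose kinases, KHK, the ketohexokinase that phosphorylates fructose, moved opposite to HK2. It was at 29.6, 30.8 and 26.6 CPM with vehicle at 20% O2, 9.38, 10.4 and 9.33 CPM with vehicle at 1% O2, and 21.4, 17.8 and 10.1 CPM with 32-134D. Replicate 3 of 32-134D was again within the hypoxic range. KHK fell by 1.57 on the log2 scale in hypoxia (SE 0.20, FDR = 7.73e-06 by edgeR), rose by 0.78 with the compound (FDR = 0.00391 by edgeR), and was 0.80 lower than in normoxia (FDR = 0.0161 by edgeR). It was the gene of the list called lower against normoxia, and that call ended without replicate 3 of 32-134D (-0.54, under the fold threshold), without replicate 1 or replicate 2 of vehicle at 20% O2 (FDR = 0.0574 and 0.07 by edgeR) and with only the 2 groups fitted (FDR = 0.0611 by edgeR). The increase of KHK with the compound was 1.03 without replicate 3. Of the VDAC genes, whose products anchor HK1 and HK2 on mitochondria, VDAC2 rose by 1.31 and VDAC3 by 0.66 in hypoxia, and they fell by 0.88 and 0.62 with the compound. The fall of VDAC3 was under the fold threshold without replicate 3 of 32-134D (-0.54), replicate 1 or replicate 3 of vehicle at 1% O2 (both -0.57) or replicate 1 of vehicle at 20% O2 (-0.56), and with only the 2 groups fitted (-0.56).

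**Figure D4:**
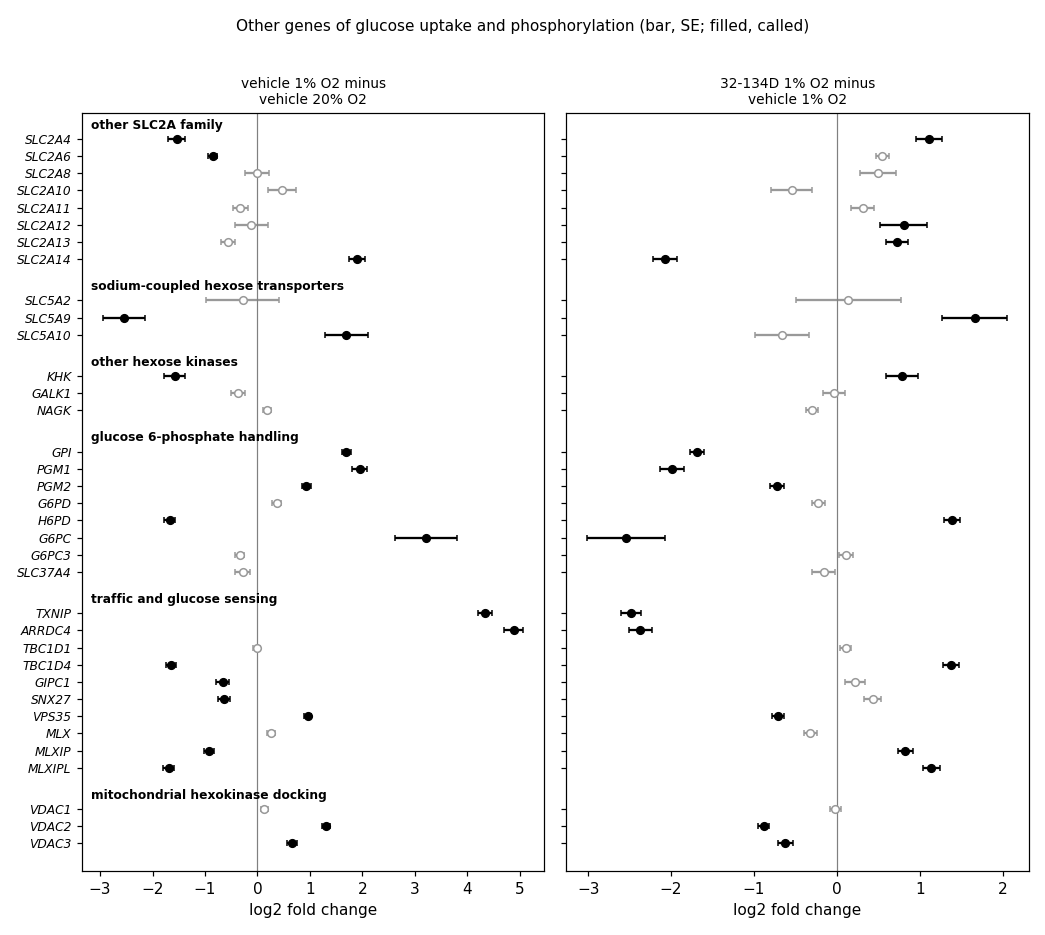
Log2 fold change (horizontal axis, a scale of its own in each panel) of the 35 tested genes of the wider pathway (vertical axis, by group), with SEs as bars, for hypoxia (left) and for 32-134D at 1% O2 (right). Filled points passed both thresholds, 11 higher and 10 lower in hypoxia and 9 higher and 10 lower with the compound, and TXNIP and ARRDC4 are farthest to the right on the left panel.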

How the data were processed

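RNA-seq was performed on 9 cultures of Hep3B cells. The values used are raw read counts on Ensembl genes (GRCh38), deposited by the authors in 1 table and made with FastQC, MultiQC, STAR and featureCounts per the submitters' notes, in versions not given in the sources used here, and the strand setting is not given there either. Reads that match several genes may be dropped or misassigned in such counts. Its 9 columns were matched to samples by name, and 0 were left unmapped. No pair of replicates was a duplicate (chi-square per degree of freedom 1.62 to 36.4). Replicates 2 and 3 were the closest pair with vehicle at 20% O2 (1.62) and at 1% O2 (2.48), and replicates 1 and 2 with 32-134D (2). The largest values, 32.5 and 36.4, were those of replicate 3 of 32-134D.

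The test was edgeR's quasi-likelihood test (version 4.0.16, R 4.3.3) after TMM scaling, in 1 fit of all libraries, for genes whose summed count reached 10. Depth, 6013980 to 40549699 counts, limits genes of few counts most. RPKM used merged exon lengths from GENCODE version 29, and positions come from there. Intervals of 95% for ratios of counts are exact and conditional, and assume Poisson counts. Shares were compared with exact two-sided permutation tests.

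The 9 genes and the lists were chosen with earlier results of these data known. Named pathway genes are HK3, SLC2A14, G6PC, TXNIP and, per list, up to 4 called genes with the largest change in hypoxia. Up to 3 nearest genes were sought for each of the 9 genes. Those of HK1 and SLC2A9 are not named, and only the nearest is named for HKDC1, ADPGK, GCKR and SLC2A3. The values of 1 gene of the lists are not reported here. Alternatives were DESeq2 1.42.0, other scalings, filters and thresholds, fits of 2 groups, thinning, a replicate block, other length measures and leaving out each library.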

Additional observations from a re-analysis of the deposited data

How the results depend on the processing

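Of 27 fold changes (9 genes in 3 comparisons), 20 kept their direction and their call, by FDR and fold together, under every alternative fit that gave a value, among them all those of SLC2A1, SLC2A3, HK2, HKDC1 and ADPGK. The 27 include those of HK1, whose calls are a description. The FDR alone crossed 0.05 for HKDC1 with the compound (6.76e-05 to 0.548 by edgeR or DESeq2) and against normoxia (0.0363 to 0.528), and for ADPGK with the compound (0.00043 to 0.224). SLC2A3, SLC2A9 and HK1 have no value under the filter of at least 10 counts in every library. That filter left 2 of the 9 genes higher in hypoxia, and 2 higher and 2 lower with the compound. Total library size in place of TMM, which moved the median of all genes by -0.21 in hypoxia and 0.17 with the compound, and thinning to the smallest library also gave 2 higher with the compound, as GCKR passed (0.71 and 0.88). Leaving out each library gave 1 to 2 there (2 without replicate 3 of vehicle at 1% O2 or of 32-134D), and 0 to 1 lower against normoxia (1 without replicate 2 of 32-134D). With no filter, 1 gene, SLC2A2, was lower against normoxia (-0.73, FDR = 9.88e-07 by edgeR). The prior degrees of freedom of that fit were infinite, so each gene took the spread of the trend, against 8.26 with the filter of the report. With a fold change above 2, 1 gene was higher against normoxia.

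Signs turned for SLC2A9 with the compound (-0.037 to 2.22 leaving out each library, lowest without replicate 1 of vehicle at 1% O2) and for HK1 against normoxia (0.0097 when thinned), both at few counts. The fall of HK1 with the compound missed the FDR when thinned (-2.86, FDR = 0.0508 by edgeR), with fewer counts by construction. Of the other pathway genes, a fold change above 2 left 6 lower in hypoxia, and 5 higher and 6 lower with the compound. Against normoxia, 4 were higher and 4 lower with no fold threshold, 2 were lower with no filter, and 0 lower with only the 2 groups fitted or a fold above 2. Leaving out each library gave 0 to 2 (0, with KHK lost, without replicate 2 of vehicle at 20% O2 or replicate 3 of 32-134D).

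The HK2 share in the 3 groups was 71.7%, 91.0% and 78.1% of raw counts without length, and 61.8% in normoxia with the longest transcript. The SLC2A1 share was 45.5% of raw counts in normoxia and 98.6% in hypoxia, or 98.8% with the longest transcript. The order of the groups was the same.

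Replicate numbers gave no sign of pairing, which libraries this few cannot exclude. Libraries of different groups were correlated after the group mean of each gene was subtracted from its log2 CPM. The correlation ran from -0.14 to 0.062 for the same number and from -0.146 to 0.163 for different numbers. Of the 9 libraries, 1 matched its own number best. A replicate block left 4 higher and 2 lower in hypoxia and changed none of these counts.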
